A study of Mus musculus with 22 samples.

Results

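In mouse embryonic stem cells depleted of TERRA, 1309 sites carried an ATRX peak in both replicates, lay in H3K9me3 chromatin and had no ATRX peak in either control library. These sites are called replicated ATRX gains inside H3K9me3, or members, below. They were chosen by the called peaks themselves. Of 41384 ATRX peaks in TERRA KD replicate 1, 2513 (6.07%) overlapped a peak of replicate 2, and 1875 of these (4.53% of the list) overlapped no ATRX peak of either scramble KD list. Of the 1875, 1309 (3.16% of the list) overlapped an H3K9me3 peak of at least 1 TERRA KD list, and the other 566 (1.37%) are the gains outside H3K9me3 used below as the nearest set for comparison. A further 10544 ATRX peaks met every criterion but the overlap with replicate 2, and are called unreplicated gains inside H3K9me3. That ATRX and H3K9me3 were called at these sites after TERRA KD is therefore the rule and not a result.

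The cells were the 16.7 line, a female mouse embryonic stem cell line whose labelled background is CAST/Ei x 129/Sv/Jae, cultured with serum and LIF and freed of feeder cells. All of them received an LNA gapmer, a short chemically modified antisense oligonucleotide that directs cleavage of its target RNA, 12 h before collection. The gapmer was a scramble sequence in scramble KD and was complementary to the telomeric repeat of TERRA in TERRA KD. ATRX, H3K9me3 and G4 were measured by ChIP-seq, G4 with the structure-specific antibody BG4, and open chromatin was measured by ATAC-seq, each in 2 replicates per condition. The 22 samples gave 16 peak lists and 6 input libraries that have no list of their own. ATRX and H3K9me3 of one condition and replicate were called against the same input, and both G4 replicates of a condition were called against one input. The level of TERRA itself was not measured in the files used here, the cells were of 1 line, and the labels do not say whether replicates were separate cultures, so the spread between replicates may be technical.

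TERRA is the long noncoding RNA transcribed from chromosome ends, made of repeats of the telomeric sequence, and it binds ATRX. ATRX is a chromatin remodeller that, with DAXX, deposits a replication-independent histone variant at telomeres and other repeats, and its reader domain binds H3K9me3. H3K9me3 is the mark of constitutive heterochromatin, and in embryonic stem cells it covers endogenous retroviral elements, satellite repeats and imprinted loci. Among the retroviral elements, intracisternal A particles (IAP) are a young and abundant family whose reverse transcription is primed by tRNA-Phe. G-quadruplexes (G4) are folded structures of guanine-rich DNA that ATRX is known to bind, and ATAC-seq marks DNA that a transposase can reach.

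The sequences under the members show what kind of DNA they are, and they are given before the values. Members were ordered by the worse of their ranks in both ATRX lists, and "member 9" is the ninth in that order. Of the 1309 members, 1303 lay on an assembled chromosome, and the central 300 bases of each were read from GRCm38. The first pair shows 120 bases around an 18-base primer binding site, the place at which a tRNA starts the reverse transcription of a retroviral element, with the site in capitals. Member 9 holds it at chr1:195320599-195320718 (plus strand) and member 28 at chr6:147303858-147303977 (plus strand).
Member 9: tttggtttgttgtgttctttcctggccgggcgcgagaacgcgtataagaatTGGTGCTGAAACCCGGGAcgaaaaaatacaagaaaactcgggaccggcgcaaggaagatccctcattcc
Member 28: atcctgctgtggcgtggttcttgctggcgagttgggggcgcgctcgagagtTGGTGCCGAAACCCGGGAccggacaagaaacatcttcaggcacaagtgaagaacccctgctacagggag

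The next 3 are each the member that resembled most others in its group of similar sequences, described further below. Member 70 (chr4:71509692-71509991, intergenic) stands for the largest group. Member 139 (chr12:50402876-50403175) lies in Prkd1, a gene for a protein kinase, and stands for a GC-rich group. Member 32 (chr16:76561134-76561433, intergenic) stands for an AGG/CCT trinucleotide repeat.
Member 70: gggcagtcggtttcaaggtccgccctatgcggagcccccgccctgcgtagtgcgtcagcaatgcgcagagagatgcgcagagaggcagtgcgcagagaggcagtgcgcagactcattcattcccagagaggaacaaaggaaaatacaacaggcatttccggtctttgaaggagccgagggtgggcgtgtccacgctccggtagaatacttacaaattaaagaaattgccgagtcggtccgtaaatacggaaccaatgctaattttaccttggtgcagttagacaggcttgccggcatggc
Member 139: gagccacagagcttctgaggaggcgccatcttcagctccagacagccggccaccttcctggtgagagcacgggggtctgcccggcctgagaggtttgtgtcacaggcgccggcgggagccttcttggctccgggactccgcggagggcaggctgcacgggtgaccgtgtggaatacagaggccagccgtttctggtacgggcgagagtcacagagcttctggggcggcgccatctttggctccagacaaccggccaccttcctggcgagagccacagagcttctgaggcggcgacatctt
Member 32: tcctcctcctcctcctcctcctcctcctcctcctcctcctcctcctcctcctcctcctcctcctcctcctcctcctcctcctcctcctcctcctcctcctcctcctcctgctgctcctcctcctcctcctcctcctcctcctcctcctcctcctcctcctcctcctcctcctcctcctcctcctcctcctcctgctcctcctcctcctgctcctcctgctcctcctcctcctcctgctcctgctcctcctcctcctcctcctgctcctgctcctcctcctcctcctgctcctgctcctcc

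The last pair is shown for place and motif. Member 1 (chrX:170002340-170002639) lies in the pseudoautosomal region at the end of X and is built of a short tandem repeat. Member 4 (chr8:123601832-123602131) lies in the 5S rRNA array, and its capitals mark G4 motifs, read on the complementary strand.
Member 1: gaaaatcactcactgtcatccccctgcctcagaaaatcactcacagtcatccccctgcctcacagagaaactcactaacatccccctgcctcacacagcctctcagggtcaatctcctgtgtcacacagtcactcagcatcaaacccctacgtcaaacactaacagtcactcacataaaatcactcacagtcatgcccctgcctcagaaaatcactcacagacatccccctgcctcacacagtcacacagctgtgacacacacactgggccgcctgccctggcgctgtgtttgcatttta
Member 4: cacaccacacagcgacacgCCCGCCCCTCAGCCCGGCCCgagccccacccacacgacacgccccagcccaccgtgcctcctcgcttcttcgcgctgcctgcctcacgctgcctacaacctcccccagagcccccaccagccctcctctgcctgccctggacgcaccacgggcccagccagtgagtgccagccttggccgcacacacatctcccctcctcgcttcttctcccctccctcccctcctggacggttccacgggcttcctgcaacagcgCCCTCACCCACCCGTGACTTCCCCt

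Repeated sequence filled most members. The median member was 100% soft-masked (marked as repeat in the assembly), as was the median unreplicated gain inside H3K9me3, against 15.3% at gains outside H3K9me3 and 36.7% over all ATRX peaks of TERRA KD replicate 1. The genome copies of each central window were taken as the median count of 11 evenly spaced 32-base words over the whole genome, on both strands. Members had a median of 258 copies, with quartiles of 29.5 and 665, against 1 copy at gains outside H3K9me3 and 40 at unreplicated gains inside it. Of the members, 1057 (81.1%) had 10 or more copies and 117 (8.98%) were single copy. At gains outside H3K9me3 the order was the opposite, with 14.7% at 10 or more copies and 76.3% single copy. Over all ATRX peaks of the list 26.6% had 10 or more copies and 65.4% were single copy. A read from such sequence was placed at 1 of its best positions by the aligner's default, so a peak at a repeated member need not lie at the copy from which the reads came, and how far this shaped the members was not tested.

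**Figure D1:**
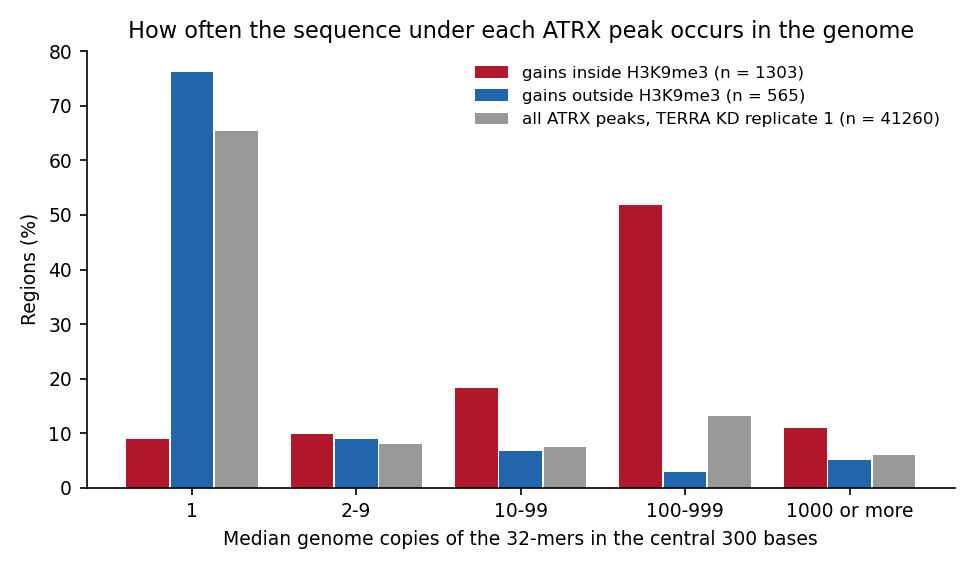
Share of regions (vertical axis, percent) by the median number of genome copies of the 32-base words in their central 300 bases (horizontal axis), for gains inside H3K9me3, gains outside it and all ATRX peaks of TERRA KD replicate 1. Of the members 51.8% fall between 100 and under 1000 copies, where 2.83% of the gains outside H3K9me3 fall, and 8.98% against 76.3% are single copy.

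Most members resembled one another. With a match taken as at least 80% identity over at least 150 bases, 1081 of 1303 members (83.0%) were like at least 1 other member, and joining all matches gave 15 groups of 5 or more. The 5 largest groups held 893 members (68.5%). The largest held 766 (58.8%), lay on all 21 chromosomes and had a median of 555 copies, and 82.0% of it was intergenic. The next held 52 members on 16 chromosomes with a median GC content of 62.2%, and the fifth held 22 members on 12 chromosomes with a median GC content of 65.7%. These groups were made from the members' own sequences and are used only for description.

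Primer binding sites of tRNA-Phe, the primer of IAP elements, marked part of the largest group. No repeat annotation was used, so no member is assigned to an element family here. Sites were built from the RefSeq tRNA genes as TGG followed by the reverse complement of the last 15 gene bases, and both genome strands were searched. The sites of tRNA-Phe, TGGTGCCGAAACCCGGGA (shared with a tRNA-Ser gene, 1090 genome sites) and TGGTGCTGAAACCCGGGA (422 sites), lay in 61 and 26 members, 87 members together (6.65%). None of the 566 gains outside H3K9me3 held one, while 3.66% of the unreplicated gains inside H3K9me3 and 717 of all ATRX peaks (1.73%) did. The gains outside were chosen to lie outside TERRA KD H3K9me3 peaks, which held 80.2% and 55.0% of these sites (replicates 1 and 2). Their lack of sites thus follows in part from the rule. Of the 87, 85 belonged to the largest group of similar sequences. Sites of other tRNAs lay in fewer members. Those of tRNA-Ile lay in 20 (1.53%, beside 0.331% of all ATRX peaks), of tRNA-Pro in 11 (0.840%, beside 0.193%) and of tRNA-Gly in 9 (0.688%, beside 0.0773%). Those of tRNA-Lys lay in 3 (0.229%, beside 0.109%), of tRNA-Leu in 2 (0.153%, beside 0.0411%), and of tRNA-Gln and tRNA-Thr in 1 each (0.0764%, beside 0.0507% and 0.0242%). A share above that of all ATRX peaks was thus not particular to tRNA-Phe. The genome held 995 tRNA-Leu sites, so a frequent site was not in itself frequent among members. Any primer binding site was in 118 members (9.01%), against 2.35% of all ATRX peaks and 0 gains outside H3K9me3, a set chosen to lie outside that mark.

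Members clustered downstream of the tRNA-Phe site, in the direction in which the element reads. The centres of 224 members (17.1%) lay within 10 kb of a site, 207 of them (15.8% of members) between 500 bp upstream and 7500 bp downstream, with a median offset of 882 bp downstream. The bins from 0 to 500 bp and from 500 to 1000 bp downstream held 50 and 45 members, and the 500 bp upstream held 14. In the same 8-kb span lay 11.04% of the unreplicated gains inside H3K9me3 and 4.30% of all ATRX peaks.

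**Figure D2:**
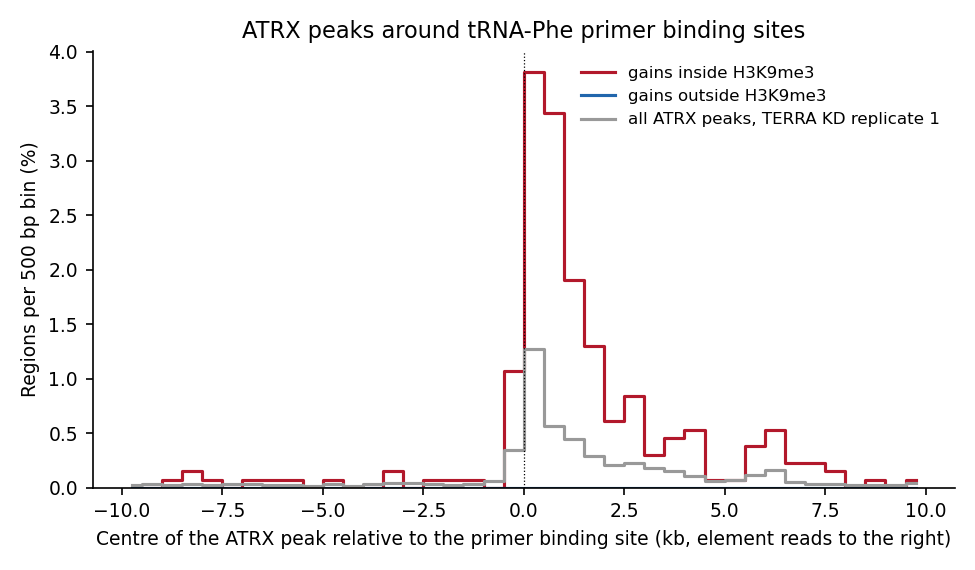
Share of regions (vertical axis, percent per 500-bp bin) by the distance of their centre from the nearest tRNA-Phe primer binding site (horizontal axis, kb, with the element reading to the right). Members reach 3.82% in the first bin downstream. The line of the gains outside H3K9me3, chosen to lie outside TERRA KD H3K9me3 peaks, lies at 0 throughout.

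The 1512 tRNA-Phe sites of the genome were then read in each peak list, whether or not they lay in a member. ATRX peaks held 12.2% and 4.30% of them in scramble KD against 47.6% and 8.27% under TERRA KD (replicates 1 and 2). The TERRA KD value was the higher one in both replicates, but this is the contrast on which the members were chosen. The sites include those in the 87 members that hold one, which by the rule lie in no scramble KD ATRX peak. They were not left out, so the higher values are not a separate result. The whole lists differed too, with 7321 and 13652 ATRX peaks in scramble KD against 41384 and 21718 under TERRA KD. H3K9me3 peaks held 77.2% and 34.1% of the sites in scramble KD against 80.2% and 55.0% under TERRA KD. G4 peaks held 5.49% and 50.5% in scramble KD against 18.1% and 24.9% under TERRA KD, and ATAC peaks held at most 4.17% in any list. The tRNA-Phe sites were thus often in H3K9me3 peaks in both conditions and mostly outside ATAC peaks.

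The peaks behind the members ranged from barely called to very strong. The −log10 p of a peak, given by the peak caller, had a median of 4.06 in replicate 1 (range 2.001 to 107) and 2.72 in replicate 2 (range 2.002 to 205), beside 2.40 and 2.33 over the whole lists. The fold enrichment over background had medians of 11.9 and 4.83, and the tags in a peak had medians of 12 and 13, beside 5 and 10 over the lists. A −log10 p of at least 5 was reached by 506 members (38.7%) in replicate 1, by 112 (8.56%) in replicate 2 and by 57 (4.35%) in both. The false discovery rate that the peak caller gave was at most 5% for 369 members (28.2%) in replicate 1 and for 1305 (99.7%) in replicate 2. Members had a median length of 792 bp (199 to 13398 bp), longer than the list median of 460 bp, and a longer region meets more peaks of any kind.

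**Figure D3:**
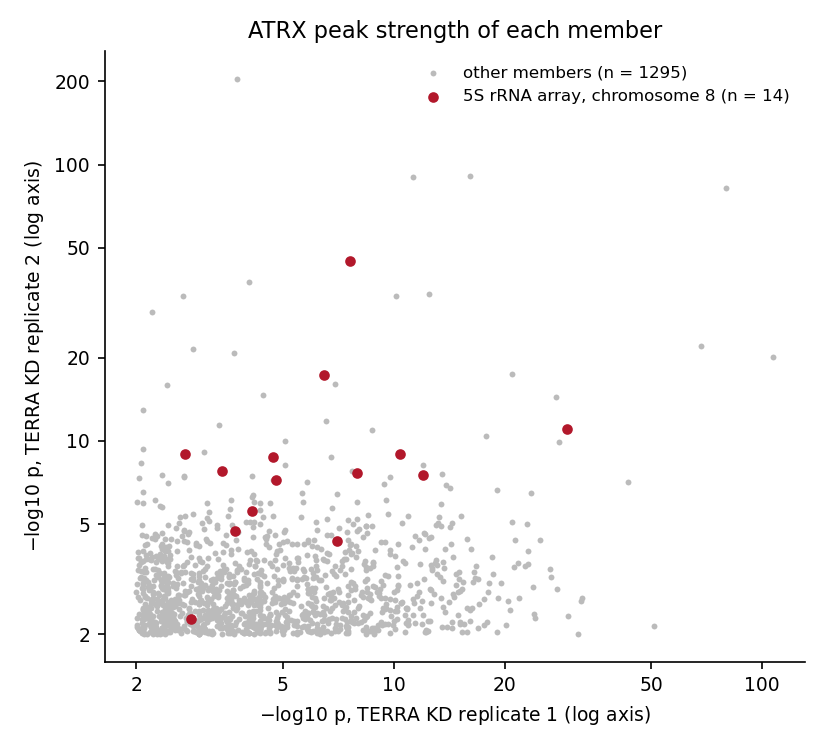
−log10 p of each member's ATRX peak in TERRA KD replicate 1 (horizontal, log axis) against that of the strongest overlapping peak of replicate 2 (vertical, log axis), with the 14 members of the 5S rRNA array in red. Most points sit near the calling limit, and 57 of 1309 reach 5 on both axes.

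Overlap criteria were met with room to spare at most members. The ATRX peaks of both replicates shared a median of 490 bp, at the least 3 bp, and 37 members (2.83%) shared under 50 bp. TERRA KD H3K9me3 covered 1203 members (91.9%) wholly and 31 (2.37%) over less than 50% of their bases, with a lowest value of 1.66%. Just outside the rule, 64 of the 566 gains outside H3K9me3 (11.3%) had a TERRA KD H3K9me3 peak within 1 kb. Just inside it, 121 members (9.24%) had a scramble KD ATRX peak within 1 kb. Because 69 peaks of replicate 2 overlapped more than 1 member, 138 members were not separate events in replicate 2.

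The lists rest on unequal depth. After removal of duplicates ATRX had 6606064 and 15506154 tags in scramble KD against 4104486 and 14878010 under TERRA KD. H3K9me3 had 5435286 to 13898785 tags, G4 had 2961038 to 24588605 and ATAC had 5976014 to 7883648. The inputs shared by ATRX and H3K9me3 had 3366921 tags (scramble KD) and 3374834 (TERRA KD) in replicate 1. In replicate 2 they had 19735093 and 28622103. The member intervals are peaks of replicate 1, called against the shallower input. A site without a peak is one at which no enrichment was detectable at the depth of that library, and this holds for the absence of ATRX in scramble KD on which the members rest.

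H3K9me3 was already called in scramble KD at most members. Of 1309, 1119 (85.5%) overlapped an H3K9me3 peak of scramble KD replicate 1, beside 28.1% of all ATRX peaks of the list, and 1014 (77.5%) overlapped one of replicate 2, beside 21.3%. The TERRA KD lists, on which members were chosen, held 1211 (92.5%) and 1183 (90.4%), beside 30.2% and 25.1%. At least 1 scramble KD list held 1202 members (91.8%), beside 31.3% of all ATRX peaks and 85.4% of the unreplicated gains inside H3K9me3. In full, 931 members (71.1%) had H3K9me3 in both scramble KD lists, 271 (20.7%) in 1 and 107 (8.17%) in neither. All 4 lists held 884 members (67.5%), beside 15.6% of all ATRX peaks and 41.3% of the unreplicated gains inside H3K9me3. Only 25 members (1.91%) had H3K9me3 in both TERRA KD lists and neither scramble KD list, beside 0.771% and 2.64%. The longest H3K9me3 peak over each member had a median length of 7268 and 985 bp in scramble KD against 8197 and 1318 bp under TERRA KD. The medians of the whole lists were 2404, 491, 3119.5 and 515 bp in the same order. A longer peak overlaps more regions and the longest was taken, so values above the list medians are not a result about the members.

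**Figure D4:**
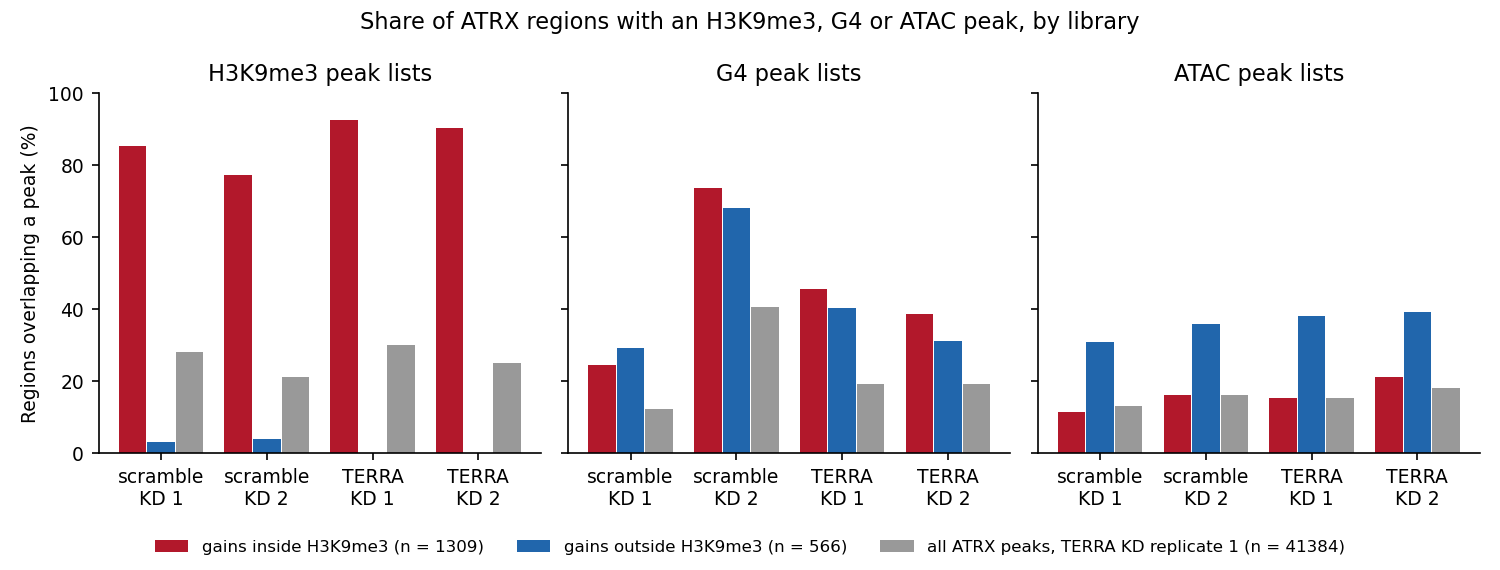
Share of regions (vertical axis, percent) that overlap an H3K9me3, G4 or ATAC peak in each of the 4 libraries of an assay (horizontal axis), for gains inside H3K9me3, gains outside it and all ATRX peaks of TERRA KD replicate 1. The TERRA KD H3K9me3 bars were fixed by the rule, the scramble KD H3K9me3 bars of members stand at 85.5% and 77.5%, and the ATAC bars of members lie under those of the gains outside H3K9me3 in every library.

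Members without H3K9me3 in scramble KD overlapped ATAC peaks more often than the rest in all 4 libraries, which is given as a description. The 931 members with H3K9me3 in both scramble KD lists had a median −log10 p of 4.44 in ATRX replicate 1, against 3.30 for the 107 with it in neither, while in replicate 2 the medians were 2.73 and 2.96. They had median lengths of 907 and 621 bp. A G4 peak of scramble KD replicate 1 lay at 19.2% of the 931 and at 54.2% of the 107, while in scramble KD replicate 2 the shares were 75.4% and 71.0%. ATAC peaks lay at 7.84% and 11.9% of the 931 in scramble KD, and at 28.0% and 37.4% of the 107. In TERRA KD the ATAC shares were 11.2% and 16.97% of the 931 and 37.4% and 38.3% of the 107. Of the 107, 25 (23.4%) had H3K9me3 in both TERRA KD lists, against 884 of the 931 (95.0%).

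AGG/CCT repeats and the 5S rRNA array made up part of the 107. Members with 8 or more AGG units in a row (CCT on the other strand) in the central window numbered 9, on 7 chromosomes, and 8 of them had H3K9me3 in neither scramble KD list. This motif was in 0.691% of members and 0.153% of all ATRX peaks. All 9 overlapped a G4 peak in each of the 4 G4 lists and none overlapped an ATAC peak in any list. Their ATRX peaks had a median −log10 p of 7.53 in replicate 1 and 4.92 in replicate 2, both above the member medians. The group of 22 similar sequences that member 32 stands for had like values, with G4 in all 22 in all 4 lists. H3K9me3 was called at 9.09% and 4.55% of them in scramble KD and at 50% and 72.7% in TERRA KD. Because the rule required H3K9me3 in at least 1 TERRA KD list, these shares do not measure a change between conditions.

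The 5S rRNA array of chromosome 8 held the densest run of members. It spans chr8:123538784-123622046, 83.3 kb with 32 annotated 5S rRNA genes at a spacing of 1703 bp, and 5S rRNA is the small RNA of the large ribosomal subunit that RNA polymerase III transcribes. It contained 14 members, 11 of them over an rRNA gene, and 10 gains outside H3K9me3. ATRX peaks covered 0% and 1.25% of the array in scramble KD (0 and 2 peaks) and 61.6% and 59.0% in TERRA KD (34 and 47 peaks). The TERRA KD lists were far above the scramble KD lists here in both replicates, and this is the contrast on which the members were chosen. H3K9me3 peaks covered 5.71% and 2.65% in scramble KD against 29.6% and 7.93% under TERRA KD, so the array was mostly outside H3K9me3 in every library.

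G4 and ATAC peaks were frequent in the array in both conditions. G4 peaks covered 89.9% and 81.6% of it in scramble KD against 79.0% and 42.7% under TERRA KD, lower in TERRA KD in both replicates. ATAC peaks covered 15.9% and 17.7% in scramble KD against 16.3% and 17.6% under TERRA KD, and the conditions overlapped. Of the 14 members, 10 had H3K9me3 in neither scramble KD list, which left 97 such members elsewhere. Member 4, the strongest in the array by rank, had −log10 p values of 29.6 and 11.1, no H3K9me3 peak in either scramble KD list, a G4 peak in 3 lists and an ATAC peak in all 4. The member at chr8:123617008-123619839, which holds the rRNA gene Gm22291, had 7.62 in replicate 1 and 44.6 in replicate 2. The number of 5S genes in the array of these cells was not measured, and reads of its near-identical units cannot be told apart.

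G4 peaks lay at many members, but the shares differed more between replicates than between conditions. In scramble KD 24.6% of members (322) and 73.8% (966) overlapped a G4 peak, beside 12.2% and 40.6% of all ATRX peaks. In TERRA KD the shares were 45.7% (598) and 38.7% (506), beside 19.2% and 19.3%. The TERRA KD values both lay between the scramble KD values. The mean was 49.2% ± 34.8 (SD, n = 2) in scramble KD and 42.2% ± 4.97 (SD, n = 2) in TERRA KD, a difference of −7.03 percentage points that rose by 21.1 points in replicate 1 and fell by 35.1 points in replicate 2. An exact permutation test over the 4 samples, two-sided, gave p = 1.0, where the smallest p that the design allows is 0.333. The direction was that of the depth in each replicate, with 2961038 G4 tags before 5759282 (scramble KD, then TERRA KD) in replicate 1 and 24588605 before 13127555 in replicate 2, and the part of depth in the difference was not tested. Over all ATRX peaks of the list the difference was −7.15 points.

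Few members gained or lost G4 in a replicated way. Only 3 members (0.229%) had a G4 peak in both TERRA KD lists and neither scramble KD list, beside 0.256% of all ATRX peaks, and 11 (0.840%) had one in both scramble KD lists and neither TERRA KD list, beside 0.901%. Both shares are near the background of the list. All 4 G4 lists held 212 members (16.2%), and none held 309 (23.6%), beside 4.91% in all 4 and 53.3% in none over all ATRX peaks. Set against the gains outside H3K9me3 in the same libraries, the difference in share was −4.55 points in scramble KD replicate 1 and 5.60, 5.40 and 7.56 points in the other 3 libraries. The mean difference was 3.50 points and did not pass an exact sign-flip permutation test over the 4 libraries, two-sided (p = 0.25, smallest possible 0.125). It was negative in 4 of the alternatives, given at the end.

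G4 motifs in the sequence were uncommon in members. A motif was 4 runs of at least 3 G with 1 to 7 bases between runs, on either strand. It lay in the central window of 44 members (3.38%), 10.1% of the gains outside H3K9me3 and 5.43% of all ATRX peaks. G4 peaks of scramble KD replicate 1, the G4 list with the fewest peaks, lay at 63.6% of the 44 and at 23.1% of the 1259 members without the motif. In scramble KD replicate 2 the shares were 77.3% and 73.8%, and in TERRA KD they were 68.2% and 52.3% with the motif and 44.9% and 38.3% without it. Most members with a G4 peak therefore held no such motif in that window. Telomeric repeats of 4 or more TTAGGG units in a row were in the central window of 0.154% of members, beside 0.434% of all ATRX peaks.

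Members were mostly outside ATAC peaks, in shares near those of the whole ATRX list. ATAC peaks overlapped 11.4% (149) and 16.2% (212) of members in scramble KD, beside 13.2% and 16.1% of all ATRX peaks, and 15.4% (202) and 21.2% (277) in TERRA KD, beside 15.3% and 18.2%. No ATAC list held 979 members (74.8%), and all 4 held 125 (9.55%), beside 78.2% and 10.8% of all ATRX peaks. The mean was 13.8% ± 3.40 (SD, n = 2) in scramble KD and 18.3% ± 4.05 (SD, n = 2) in TERRA KD. TERRA KD was higher by 4.05 points in replicate 1 and by 4.97 points in replicate 2, a mean of 4.51 points. The ranges of the conditions overlapped, and the exact permutation test over the 4 samples, two-sided, gave p = 0.667 (smallest possible 0.333). Over all ATRX peaks of the list the mean difference was 2.03 points, and the ATAC tags were also higher in TERRA KD in both replicates (6615112 against 5976014, and 7883648 against 7499296), whose part was not tested.

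In each library fewer members than gains outside H3K9me3 had an ATAC peak. At the gains outside the shares were 30.9% and 35.9% in scramble KD against 38.2% and 39.2% under TERRA KD. The share of members minus that of the gains outside was −19.5, −19.7, −22.7 and −18.1 percentage points in the same order, a mean of −20.0 points, lower in 4 of 4 libraries (exact sign-flip permutation test over libraries, two-sided, p = 0.125, the smallest that 4 libraries allow). Read only in the central 300 bases, which removes the difference in length, the mean difference was −19.1 points. Counting the 246 members and 482 gains outside with under 10 genome copies alone, it was −11.4 points. An ATAC peak in both TERRA KD lists and neither scramble KD list was found at 18 members (1.38%), beside 0.79% of all ATRX peaks, and the reverse at 3 (0.229%), beside 0.225%.

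G4 and ATAC peaks lay together at a minority of members. In at least 1 TERRA KD list, 218 members (16.7%) had both, 495 (37.8%) had G4 alone, 81 (6.19%) had ATAC alone and 515 (39.3%) had neither. Both were at 8.25% of all ATRX peaks, 7.19% of the unreplicated gains inside H3K9me3 and 26.9% of the gains outside it. G4 alone was at 19.9%, 22.2% and 24.4% of these sets. The groups of similar sequences differed from one another in this respect. The largest had ATAC in 1.70% to 9.92% of its members over the 4 lists, G4 in 11.6% to 75.5%, and H3K9me3 in 95.4% and 90.6% in scramble KD. The GC-rich group of 52 that member 139 stands for had ATAC in 76.9% to 90.4%, G4 in 53.8% to 98.1% and H3K9me3 in 75% of its members in each scramble KD list. All of these were thus frequent in that group, and whether the same DNA molecules or alleles carried them was not measured.

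Members were mostly intergenic. By RefSeq on GRCm38, 1027 (78.5%) were intergenic, 252 (19.3%) intronic, 11 (0.840%) in coding exons, 9 (0.688%) at a promoter (1 kb before to 100 bp after a TSS), 3 in noncoding exons and 1 in a 3′ UTR, and 6 lay on unplaced contigs. Of the gains outside H3K9me3 42.8% were intergenic, 41.3% intronic and 6.89% at a promoter. The nearest TSS was at a median of 54.5 kb from members, 15.0 kb from gains outside H3K9me3 and 33.9 kb from all ATRX peaks. A TSS lay within 1 kb of 34 members (2.60%), against 80 of the gains outside (14.1%) and 5.18% of all ATRX peaks. The 34 include 11 members that lie over an rRNA gene of the 5S array. Among stronger ATRX peaks the share within 1 kb was higher. It was 4.41% of the 363 members left with a −log10 p of at least 3 in both replicates and 14.0% of the 57 left at 5. At 5 the members near a TSS were 4, 33, 43, 94 and 138, all of the 5S array, and 11, 14 and 184. The rise thus rested largely on 1 locus of near-identical units. With H3K9me3 required in both TERRA KD lists the share within 1 kb was 1.20%. Beyond 100 kb lay 467 members (35.7%). In intergenic share and median distance the members resembled the 10544 unreplicated gains inside H3K9me3, of which 77.5% were intergenic with a median distance of 52.7 kb. A TSS lay within 1 kb of 0.996% of those gains, a lower share than the 2.60% of members.

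Ribosomal RNA genes led the short list of start sites near members. Within 1 kb of a member there were the start sites of 40 genes, 19 of them rRNA genes of the 5S array and 14 protein-coding. By rank the first 15 were n-R5s136, n-R5s138, Gm13276, Tmem238l, n-R5s108, Gm26391, n-R5s133, n-R5s134, n-R5s146, Gm22291, Gm23284, Gm15446, n-R5s123, n-R5s144 and Gm25212, of which Gm13276, Tmem238l and Gm15446 lie outside the array. Member 11 (chr4:88785209-88786292) lay in a coding exon of Gm13276, with −log10 p values of 17.8 and 10.4, G4 in 3 lists, ATAC in all 4 and no H3K9me3 in scramble KD. The member beside Tmem238l (chr11:66952725-66954442) had 23.0 and 5.01, G4 in 3 lists and no ATAC peak. The member beside Gm15446 (chr5:109933952-109937716) had 26.5 and 3.46 and H3K9me3 in both scramble KD lists.

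Genes held 283 members (21.6%), against 56.2% of the gains outside H3K9me3 and 39.5% of all ATRX peaks. These fell in 263 genes, 230 of them protein-coding, and 233 genes held 1 member each. Of the other 30, Catspere1, Gm21693 and Gucy1a2 held 3. Catspere1, whose product belongs to the calcium channel of sperm, held its 3 within chr1:177923558-177926133, all with H3K9me3 in both scramble KD lists. Gucy1a2, a subunit of soluble guanylate cyclase spread over 373 kb, held 3 with H3K9me3 in both scramble KD lists, and its strongest had −log10 p values of 15.3 and 2.03. Genes with 2 members included Bst1, Ccdc15, Chn1, Cmc2, Col23a1, Crtac1, Erg, Gm10505, Gm16090, Gm51627, Gxylt2, Hs2st1, Il1rapl2, Immp2l, Kif24, Mid1, Pde1c, Rev3l, Rlf, Slc2a12, Trpm2, Usp24, Usp32, Vmn2r-ps11, Wdr63 and Zranb3. Of the 63 members in the 30 genes, 61 were intronic, 51 had H3K9me3 in both scramble KD lists and 52 had 10 or more copies.

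Pairs of members in a gene were often close neighbours. In Col23a1, a transmembrane collagen gene, the pair lay side by side (chr11:51437640-51438452 and chr11:51438529-51439491) with −log10 p values of 14.5 and 3.801 at one and 6.61 and 5.20 at the other. In Bst1, a gene for an ectoenzyme of NAD metabolism, the stronger member (chr5:43834031-43835099) had 18.6 and 3.29 and 570 copies. In Usp24, a deubiquitinase gene, it had 13.7 and 3.48 (chr4:106394665-106396548) and 795 copies, and neither member had a G4 or ATAC peak. In Rev3l, the catalytic subunit of a translesion DNA polymerase, both members overlapped the same replicate 2 peak, at a −log10 p of 3.17. The pair in Erg, an ETS transcription factor gene, stood apart, with no H3K9me3 in scramble KD, G4 in 3 lists and ATAC in all 4 at both members. Their ATRX peaks had −log10 p values of 3.53 and 3.06 at one and 2.16 and 3.01 at the other. With 2222 and 2860 genome copies, the reads need not have come from Erg. The member of Mid1 that ranked first (chrX:169926820-169928930) was single copy, with −log10 p values of 14.2 and 4.88, H3K9me3 in both scramble KD lists, and G4 and ATAC peaks in all 4 lists. The other (chrX:169986848-169987468), with 15.8 and 4.40, had no H3K9me3 in scramble KD, G4 in 2 lists and ATAC in none.

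Few members lay near the genes of the lists that were looked up, with shares close to those of all ATRX peaks for the larger lists. Within 10 kb of one of 403 zinc finger genes lay 14 members (1.07%), beside 1.19% of all ATRX peaks and 1.57% of the unreplicated gains inside H3K9me3. The zinc finger genes near members included Zfp933, which holds a member with −log10 p values of 7.70 and 3.94. Zfp445, a regulator of imprinting, holds one with 4.32 and 4.99. Olfactory and vomeronasal receptors, 1482 genes, had 14 members (1.07%, beside 0.897%), led by one 4096 bp from Olfr31 with 15.2 and 5.35. Near these receptors lay 1.51% of the unreplicated gains inside H3K9me3. The 58 clustered protocadherins had 1 member (0.0764%, beside 0.0628%), within the alpha cluster, with 2.09 and 2.46. Germline genes, 20 in the list, had 2 (0.153%, beside 0.0507%), in Mov10l1, a helicase of the piRNA pathway, and in Tuba3a, an alpha-tubulin gene of the testis. None was near the 35 imprinted genes, the 12 genes of the 2-cell stage or the 17 genes of ATRX and H3K9 methylation, beside 0.102%, 0.0097% and 0.0652% of all ATRX peaks.

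Every chromosome carried members. The density ran from 0.323 per Mb on chromosome 7 to 0.788 on chromosome 8 with an autosomal median of 0.465, and it was 0.462 on X and 0.207 on Y. Chromosome 8 held 102 members and chromosome 6 held 109 (0.728 per Mb). The same chromosomes stood out more strongly among the gains outside H3K9me3, with 142 (25.1%) on chromosome 8 and 114 (20.1%) on chromosome 6, and among all ATRX peaks of replicate 1, with 26.7 and 25.7 per Mb. Without both chromosomes 1098 members remained, and the mean ATAC difference between members and gains outside was −26.4 points. Members were mostly far apart, with a median gap of 990 kb between neighbours and 561 of 846 occupied 1-Mb stretches holding 1 member. Some lay close together, with 180 neighbours under 10 kb apart.

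**Figure D5:**
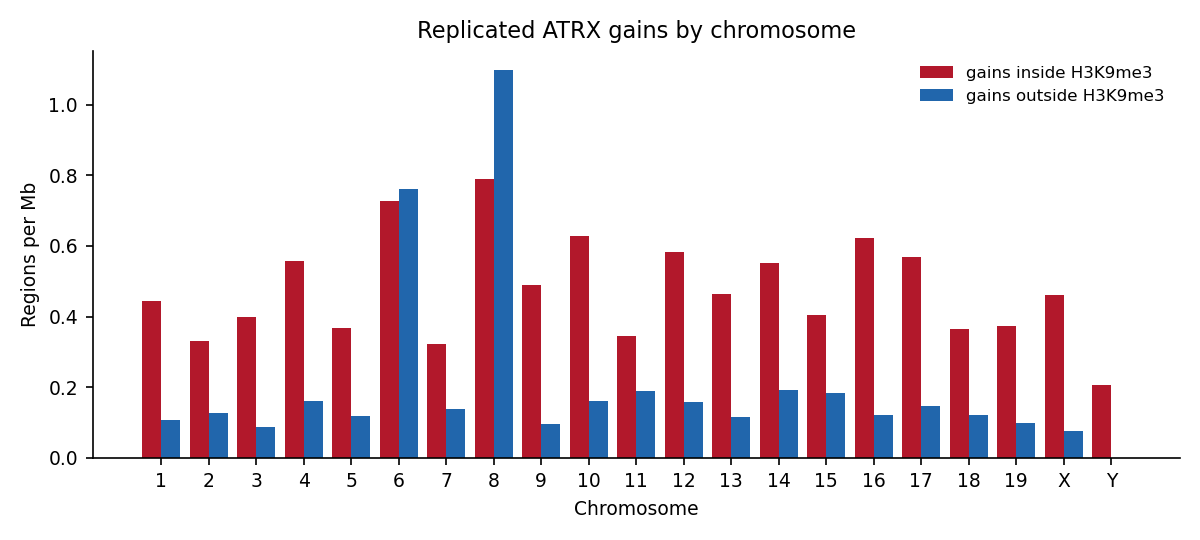
Replicated ATRX gains per Mb (vertical axis) by chromosome (horizontal axis), inside and outside H3K9me3. Gains inside H3K9me3 range from 0.207 per Mb on Y to 0.788 on chromosome 8, and gains outside it are most dense on chromosomes 6 and 8.

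The 5 stretches richest in members differed in their genes and readouts. The stretch from 123 to 124 Mb of chromosome 8, with the 5S array, had 16 members and 13 gains outside H3K9me3 among 65 ATRX peaks. From 20 to 21 Mb of chromosome 12 there were 10 members, all with H3K9me3 in at least 1 scramble KD list and all nearest to 1700030C10Rik. From 27 to 28 Mb of chromosome 17 there were 10, near 9630028I04Rik, Gm10505, Mir7216 and Pacsin1, a gene for an endocytic protein of neurons, and 7 of them had a G4 peak in TERRA KD replicate 1 while none had an ATAC peak there. From 129 to 130 Mb of chromosome 10 there were 6, nearest to olfactory receptors Olfr765, Olfr774, Olfr784 and Olfr816. From 55 to 56 Mb of chromosome 8 there were 6, near Gpm6a, a neuronal membrane glycoprotein gene, and 5 of these had G4 in TERRA KD replicate 1.

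Chromosome ends held a few members. The last 1 Mb before the end of a chromosome held 26 members (1.99%). It held 1.89% of the unreplicated gains inside H3K9me3, 0.883% of the gains outside it and 1.18% of all ATRX peaks. The last 200 kb held 8 members (0.611%), beside 0.825% of the unreplicated gains inside H3K9me3 and 0.362% of all ATRX peaks. These counts include members placed on Y, although the line is female. Of the first 12 members, 3 and 7 (both placed on Y) and 9 lay within the last 1 Mb, at 974, 961 and 150 kb from the end. Member 1, at 1025 kb from the end of X, lay just outside that window (chrX:169998299-170006679, 8381 bp) and 3.85 kb from Erdr1, a gene of the pseudoautosomal region that pairs X with Y. It had −log10 p values of 79.8 and 82.0 and fold enrichments of 26.8 and 21.1, an ATAC peak in all 4 lists and H3K9me3 in replicate 2 of both conditions. Member 3 (chrY:90767683-90770704) had 107 and 20.2, and member 7 (chrY:90782562-90783604), 1.84 kb from Erdr1, had 43.2 and 7.08. Both members of Mid1, a ubiquitin ligase gene that crosses the boundary of this region in mouse, were also among the first 31 and lay further in than member 1.

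All 19 members on Y held sequence that is also on X. At least 1 of the 11 words of 32 bases in each occurred on X, all 11 did in 8 of them, and none of the 19 was single copy. Of these 19, 4 lay in the last 1.5 Mb of Y, with 3 to 17 genome copies, and 3 lay in Gm21693. The members outside the last 1.5 Mb had 75 to 1487 copies and included 7 of the 8 with all words on X. At such copy numbers a match to X does not tell from which chromosome the reads came. The line is female, so placements on Y are given as the lists have them and do not mark sites on a Y of these cells. Where the reads came from was not tested.

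Members 2, 8 and 12 lay close together near Rny3 on chromosome 6. Member 2 (chr6:47741209-47754606), the longest at 13398 bp, had −log10 p values of 68.4 and 22.1, and lay 27.02 kb from Rny3, which encodes a small Y RNA of the Ro ribonucleoprotein. Members 8 and 12, at 2.85 and 8.25 kb from Rny3, had 20.9 and 17.5, and 16.1 and 91.1. All 3 had G4 peaks in at least 3 lists and ATAC peaks in all 4, and members 2 and 8 had no H3K9me3 in scramble KD. Member 5 (chr6:3132944-3135251), 153 kb from the nearest start site and with a median of 2 genome copies, had 28.1 and 9.89 and H3K9me3 in all 4 lists. Member 6 (chr6:140988876-140991546), 258 kb from Pde3a, a gene for a cyclic nucleotide phosphodiesterase, had 27.7 and 14.4 with H3K9me3 and G4 in all 4 lists.

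Members 9 and 10 completed the first 12. Member 9 (chr1:195320071-195322329), which holds the tRNA-Phe site printed above and 651 genome copies, had −log10 p values of 23.6 and 6.496. It had H3K9me3 and G4 peaks in all 4 lists and no ATAC peak in any. Member 10 (chr4:143644913-143647028) lay 10.2 kb from Pramel22, of a reproductive multigene family, and had 19.1 and 6.66, H3K9me3 in all 4 lists and 308 copies. The first 12 members thus included sites with H3K9me3 in every library and sites where no scramble KD list called it.

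Members with 10 or more genome copies and single-copy members differed less in G4 than in position. The 1057 members with 10 or more copies were intergenic in 81.6% of cases and had a median −log10 p of 4.33 in replicate 1, against 54.7% and 2.96 for the 117 single-copy members. H3K9me3 in scramble KD was called at 87.9% and 81.5% of the former and at 72.6% and 51.3% of the latter. A G4 peak of TERRA KD lay at 46.8% and 38.4% of the former and at 48.7% and 47.9% of the latter. ATAC peaks lay at 10.1% and 14.4% of the former in scramble KD and at 17.1% and 23.9% of the latter. Under TERRA KD they lay at 14.3% and 20.1% of the former and at 19.7% and 23.1% of the latter. More than 50% of single-copy members were thus in H3K9me3 in each scramble KD list. The 129 members with 2 to under 10 copies did not follow this order. Their intergenic share, 77.5%, was near that of the members with 10 or more copies. A G4 peak lay at 33.3% of them in each TERRA KD list, below both other groups.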

How the data were processed

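Peak lists of ATRX, H3K9me3 and G4 ChIP-seq and of ATAC-seq, 2 replicates for each of scramble KD and TERRA KD, were grouped by the condition in their titles, which the knockdown label of each sample matches. The source name of every sample, scramble KD included, reads TERRA KD, and was not used for grouping. The members and the gene lists were chosen with earlier results of these data known. The authors trimmed reads with Trim Galore 0.5.0, aligned them to GRCm38/mm10 with Bowtie2 2.3.4.1 at its default, which places a read with several best positions at 1 of them, and removed duplicates with SAMtools 1.9. Peaks were called library by library, at a p cutoff of 0.01, by the authors with MACS 1.4.3 (ATRX, H3K9me3) or 1.4.2 (G4) against input, and with MACS 2.2.7.1 without input (ATAC).

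The deposited lists of the first 3 assays give for each peak a count of tags, not scaled to depth. They give a score by the authors' software, −10 times the log10 of p, which was divided by 10 here. Fold enrichment, as deposited, is a ratio of tags to local background. A false discovery rate in percent was also deposited. The deposited ATAC lists give a pileup signal, a fold enrichment and the −log10 of p. Tag counts and signals were not set against each other across libraries, and depth is given in the report.

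Regions overlapped when they shared at least 1 bp. Shares were compared over libraries by exact permutation, two-sided, and never over regions, which are not replicates. Positions, genes (26182) and tRNA genes came from RefSeq on GRCm38. Central windows of 300 bases were compared with BLAST+ 2.17.0 and counted with Python 3.11.15, NumPy 2.4.6, pandas 2.3.3, SciPy 1.17.1 and pysam 0.24.0. The counting and overlap code was tested on simulated data. Named were the first 12 members by the worse of their ATRX ranks, genes with a TSS within 1 kb of a member (at most 15), genes holding 2 or more members, the 5 densest 1-Mb stretches and up to 6 genes of each list. Sequence groups, primer sites, AGG repeats, Y members and the 5S array, and values quoted from them, were chosen after seeing the data. Alternatives were other thresholds, overlaps, gene sets and left-out replicates. Read coverage was not used here. Some items that the naming rule covers are not reported here.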

Additional observations from a re-analysis of the deposited data

How the results depend on the processing

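Of 101 alternative values, 81 kept their direction or stayed close to the reported value, 15 moved and 5 reversed, and 20 of the 101 were added after seeing the data. The number of members, 1309, was 363 with ATRX peaks at a −log10 p of at least 3, 57 at 5 or more and 816 when 50% of the peak had to be covered. The share with H3K9me3 in scramble KD, 91.8%, was 97.7% with H3K9me3 in both TERRA KD lists, 77.2% with ATRX at 5 or more, 79.6% with H3K9me3 peaks at 5 or more, 85.8% under 10 genome copies, and 77.5% to 85.5% with 1 scramble KD replicate. The intergenic share, 78.5%, was 81.2% with H3K9me3 in both TERRA KD lists. The share within 1 kb of a TSS, 2.60%, was 1.20% with H3K9me3 in both lists, 4.41% and 14.0% with ATRX at 3 or 5 or more, 6.42% within 5 kb, and 1.15% for protein-coding genes alone. The G4 change of −7.03 points was 21.1 points without replicate 2, and ran from −35.1 to 21.1 points over the left-out replicates. The G4 difference between members and gains outside H3K9me3, 3.50 points, became −7.28 and −6.58 points with ATRX at 3 or 5 or more, −0.289 points when the G4 peak had to cover 50% of the region, and −0.744 points with intervals from replicate 2, and was 0.424 to 6.58 points over the left-out replicates. The cause of these changes was not tested. Over the left-out replicates the ATAC change was 4.05 to 4.97 points and the ATAC difference between the sets −21.1 to −18.9 points. The latter was negative in every alternative run, from −55.7 to −11.4 points.

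The labels number the replicates without saying that a number marks a shared culture or day. With the replicate block, the G4 change of −7.03 points had an exact p of 1.0 and the ATAC change of 4.51 points an exact p of 0.5, the smallest that 2 pairs allow. Over 2581 stretches of 1 Mb, same-numbered samples deviated together with an r of 0.52 for G4 and 0.11 for ATAC.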
